A study of Mus musculus with 6 samples.

Results

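Chemokines are small secreted proteins that call leukocytes into tissue, and the epidermis is one of their sources. The 10 chemokine genes described here were taken as a set of genes that keratinocytes are known to make, out of 52550 genes in the deposited table. They were kept in 2 classes. The 6 inducible genes, Ccl2, Ccl7, Ccl20, Cxcl1, Cxcl2 and Cxcl5, are known to be switched on by inflammatory signals. The 4 constitutive genes, Cxcl14, Cxcl16, Ccl27a and Cx3cl1, are known for expression without such a signal. The class names come from that background and not from these libraries. Keratinocytes, the main cells of the epidermis, were isolated from skin epidermis of wild type mice of the C57BL/6 strain, aged 0 to 2 days after birth. They were grown in vitro for 2 days, then kept untreated or given recombinant IL-33 for 12 h before RNA was extracted for mRNA sequencing. Each group had 3 libraries, so the only comparison is IL-33 against untreated. Separate cultures or animals behind the libraries are not stated in the labels, so the p-values below measure only how far these libraries differ, which may be technical.

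Chemokines bind receptors on leukocytes that belong to the G protein-coupled family, and the spacing of the cysteines near the start of the protein names the CC, CXC and CX3C classes. In skin, Ccl2 and Ccl7 draw monocytes through CCR2. Ccl20 draws cells that carry CCR6, among them gamma delta T cells and Langerhans cell precursors. Cxcl1, Cxcl2 and Cxcl5 draw neutrophils through CXCR2. Cxcl14 is abundant in resting epithelia, and Ccl27a is the skin chemokine that attracts T cells bearing CCR10. Cxcl16 and Cx3cl1 are made as membrane proteins with a chemokine domain on a mucin stalk, and metalloproteases cut them free. IL-33 is a cytokine of the IL-1 family that is stored in the nuclei of epithelial cells and signals through ST2 to NF-kB, and NF-kB is a known activator of several inducible chemokine genes.

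The libraries held 34188173 to 45266298 deposited estimated counts. Transcript FPKM times length, on the scale of the counts, piled up near multiples of 4 and, less strongly, near the even numbers between them. Taking 4 counts as about 1 sequenced fragment, the libraries held about 8547043 to 11316574 fragments. That scale is an assumption, and all fragment numbers below rest on it. A floor of 3 fragments, or 12 deposited counts, was used below, and it covers counting error only. The cells carried the markers of basal keratinocytes, with all 7 markers above the floor and a summed level of 35199 to 36290 CPM (counts scaled to the library total) untreated and 35345 to 37969 CPM with IL-33. The 6 suprabasal markers summed to 33.0 to 38.2 CPM and 30.8 to 36.6 CPM. All 10 fibroblast markers were detected, at a summed 46.0 to 53.6 CPM untreated and 42.5 to 48.9 CPM with IL-33, and all 6 melanocyte markers, at 1124 to 1173 CPM and 1119 to 1219 CPM. Of the leukocyte lists, 4 of 10 myeloid markers, 1 of 6 T cell markers (Thy1), 1 of 5 mast cell markers and 0 of 4 neutrophil markers reached the floor in any library. Cd207 and Itgam, 5 T cell markers and all 4 neutrophil markers were at 0 in every library. In such bulk samples, fewer cells of a type and less RNA per cell cannot be told apart.

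Levels between genes depended on the length they were divided by. The deposited FPKM of a gene is fragments per kilobase scaled to depth, and the length behind it was 100% to 101.6% of the union of all annotated exons, retained introns included. For genes with annotated retained-intron or other alternative exons, that length is above that of the main mRNA, and for Ccl7 and Cxcl14 it equals it. The sum of the deposited FPKM of a gene's transcripts was therefore used to rank the genes, a choice made after the values were seen. On that scale Cxcl1, a neutrophil attractant, was the most abundant member in untreated cells, at 127, 89.3 and 105 FPKM in replicates 1, 2 and 3. Cxcl16 followed at 75.1, 74.2 and 74.7 FPKM, and Cxcl14 at 48.6, 52.5 and 49.6 FPKM. These 3 genes were apart from each other and from the rest, since no library of one reached the range of the next.

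Below them in untreated cells stood Ccl27a with a mean of 18.5 ± 1.13 FPKM (SD, n = 3), Cxcl2 with 13.1 ± 1.40 and Ccl2 with 7.81 ± 1.11, each apart from its neighbours. Cxcl5 at 2.90 ± 1.07 and Ccl20 at 2.42 ± 0.429 FPKM overlapped and cannot be ordered. Ccl7 stood at 0.728 ± 0.216 FPKM, and Cx3cl1, the fractalkine gene, was the lowest at 0.170 ± 0.0457 FPKM. With IL-33 the sequence of means differed only in Ccl20 (5.43 ± 1.79) moving ahead of Cxcl5 (3.43 ± 0.486), and those neighbours again overlapped. The IL-33 libraries of Cxcl1 and Cxcl16 also overlapped, as did those of Ccl27a (17.9 ± 8.88), Cxcl2 (16.0 ± 3.13) and Ccl2 (12.8 ± 1.22), so these cannot be ordered there. By the deposited gene FPKM, in contrast, Cxcl16 led at 61.5 ± 1.10, Cxcl1 stood at 55.0 ± 9.51 and Cxcl14 at 47.7 ± 1.75 in untreated cells, with neighbouring ranges overlapping. Ccl27a differed most between the scales, since its summed transcript FPKM was 5.49 times its gene FPKM (median over 6 libraries). By gene FPKM Ccl27a stood at 3.36 ± 0.189 in untreated cells, below Cxcl2 and Ccl2 and overlapping Cxcl5, so its rank depends on the scale. The values that follow are deposited gene FPKM, which compare a gene with itself across libraries.

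**Figure D1:**
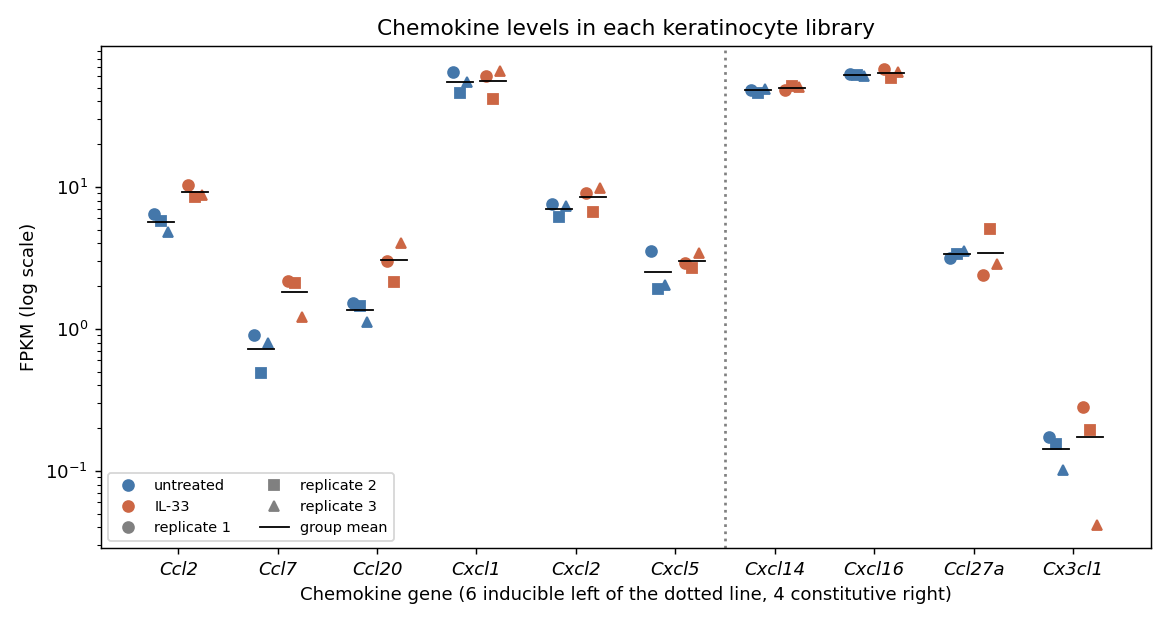
Deposited gene FPKM of each chemokine on a log scale, with 3 untreated libraries in blue and 3 IL-33 libraries in orange, marker shape for the replicate number and a line at each group mean. Only for Ccl2, Ccl7 and Ccl20 do all IL-33 points lie above all untreated points, and heights compare libraries within a gene, since the length behind a gene's FPKM includes introns that an annotated transcript retains.

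The monocyte attractants Ccl2 and Ccl7 lie side by side on chromosome 11 (GRCm38 chr11:82035571-82037453 and chr11:82045712-82047525, both on the plus strand). Ccl2 (ENSMUSG00000035385.5) stood at 6.46, 5.71 and 4.79 FPKM in the untreated libraries and at 10.2, 8.56 and 8.72 FPKM in the IL-33 libraries. Every IL-33 library was above every untreated library. The fitted log2 fold change was 0.70 (SE 0.150, 95% interval 0.36 to 1.03), or 1.62-fold, and it did not pass over all genes (edgeR adjusted p = 0.319). An annotated gene on the opposite strand, Gm17268, overlaps all of Ccl2 and was at 0 counts in every library.

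Ccl7 (ENSMUSG00000035373.2) was measured at 0.904, 0.486 and 0.794 FPKM without IL-33 and at 2.17, 2.11 and 1.22 FPKM with it. The groups did not overlap, but IL-33 replicate 3 was close to the untreated range. About 9, 4.5 and 8 fragments against 21.2, 16 and 12 fragments lay behind these values. With so few fragments the log2 fold change of 1.32 had an SE of 0.390 and an interval of 0.45 to 2.20 (2.50-fold, edgeR adjusted p = 0.622). Fibroblasts are also known to make both chemokines. Of 8 fibroblast markers tested, 4 had a log2 fold change above 0 (Col3a1, Dcn, Pdgfra and Twist2) and 4 below 0, among them Col1a1, whose 3 untreated libraries had 12.6, 4.74 and 5.72 CPM against 4.14, 2.41 and 3.60 CPM. The summed myeloid markers ran from 9.79 to 11.4 CPM untreated and from 10.4 to 15.4 CPM with IL-33. Their highest value was in IL-33 replicate 3, the library in which Ccl7 was lowest of its group. Csf1r (11.3 CPM) and Lyz2 (2.94 CPM) made up most of that value, and Cd207, Itgam, Cd74, Tyrobp and Fcer1g were at 0 there. The part of either cell type in the levels of Ccl2 and Ccl7 was not tested.

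Ccl20 (ENSMUSG00000026166.14, chr1:83116766-83119167, plus strand), the ligand of CCR6, stood at 1.53, 1.46 and 1.11 FPKM in untreated cells and at 2.99, 2.15 and 4.04 FPKM with IL-33. The groups were apart, and the IL-33 libraries differed among themselves, with replicate 3 farther above replicate 2 than replicate 2 was above the untreated libraries. The log2 fold change was 1.16 (SE 0.260, interval 0.58 to 1.74), or 2.23-fold, with an edgeR adjusted p of 0.368. About 71.8 fragments in the untreated group and 152.5 in the IL-33 group were assigned to the gene. IL-33 replicate 3, in which Ccl20 was highest, was also the library with the highest summed myeloid markers, mostly Csf1r and Lyz2. The part of myeloid cells in the Ccl20 level was not tested.

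The 3 neutrophil attractants lie in 1 cluster on chromosome 5, all on the plus strand, with Cxcl5 at chr5:90759360-90761624, Cxcl1 at chr5:90891241-90893115 and Cxcl2 at chr5:90903871-90905938. Cxcl1 (ENSMUSG00000029380.11) stood at 64.8, 45.8 and 54.4 FPKM untreated and at 60.2, 41.6 and 65.6 FPKM with IL-33. The ranges were almost the same, and replicate 2 was the lowest of each group. Its log2 fold change was 0.02 (SE 0.221), and the interval of −0.55 to 0.59 still holds changes of moderate size in both directions (edgeR adjusted p = 0.991).

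Cxcl2 (ENSMUSG00000058427.10) stood at 7.57, 6.09 and 7.32 FPKM untreated and at 9.11, 6.70 and 9.75 FPKM with IL-33. Replicates 1 and 3 with IL-33 exceeded all untreated libraries, and replicate 2 did not. The log2 fold change of 0.29 (SE 0.150, interval −0.05 to 0.62) did not pass (edgeR adjusted p = 0.763). Cxcl5 (ENSMUSG00000029371.7) stood at 3.57, 1.92 and 2.04 FPKM against 2.89, 2.68 and 3.44 FPKM. Untreated replicate 1 was the highest of all 6 libraries for Cxcl5, so the groups overlapped, with a log2 fold change of 0.26 (SE 0.245, interval −0.29 to 0.81, edgeR adjusted p = 0.88). The Cxcl5 log2 fold change was 0.59 without untreated replicate 1 and 0.096 without untreated replicate 2.

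Among the constitutive genes, Cxcl14 (ENSMUSG00000021508.11, chr13:56288643-56296551, minus strand) was even across all libraries, at 48.4, 45.8 and 49.1 FPKM untreated and 48.1, 51.2 and 50.7 FPKM with IL-33. Its log2 fold change was 0.07 with the narrowest interval of the set, −0.05 to 0.19 (SE 0.0545, edgeR adjusted p = 0.848). Cxcl16 (ENSMUSG00000018920.11, chr11:70453983-70459984, minus strand) stood at 62.7, 61.3 and 60.5 FPKM against 67.9, 58.7 and 64.6 FPKM. The IL-33 libraries spanned the untreated ones on both sides. The log2 fold change was 0.05 (SE 0.0553, interval −0.07 to 0.18, edgeR adjusted p = 0.897). Its gene shares 552 bases with Zmynd15 on the opposite strand, which had 2791 to 4323 deposited counts against 6712 to 10002 for Cxcl16, and a strand setting of the counting is not stated, so reads in the shared bases cannot be told apart.

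Ccl27a (ENSMUSG00000073888.12, chr4:41769467-41774247, minus strand) stood at 3.17, 3.35 and 3.55 FPKM untreated and at 2.41, 5.07 and 2.86 FPKM with IL-33. IL-33 replicate 2 was above and the other IL-33 libraries were below all untreated libraries. The log2 fold change was 0.05 (SE 0.252, interval −0.53 to 0.63, edgeR adjusted p = 0.982), and its sign changed with the processing. Of the 331 stretches of 75 bases in its most abundant transcript, 169 (51.1%) also occur in Ccl27b or Gm13306, so counts of Ccl27a could be split with these copies. Cx3cl1 (ENSMUSG00000031778.13, chr8:94772009-94782427, plus strand) stood at 0.174, 0.154 and 0.101 FPKM and at 0.282, 0.195 and 0.0414 FPKM, and IL-33 replicate 3 held 8 deposited counts, under the floor. Its log2 fold change of 0.30 had an interval of −1.14 to 1.74 (SE 0.644, edgeR adjusted p = 0.955), so a change was not detectable at this depth.

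**Figure D2:**
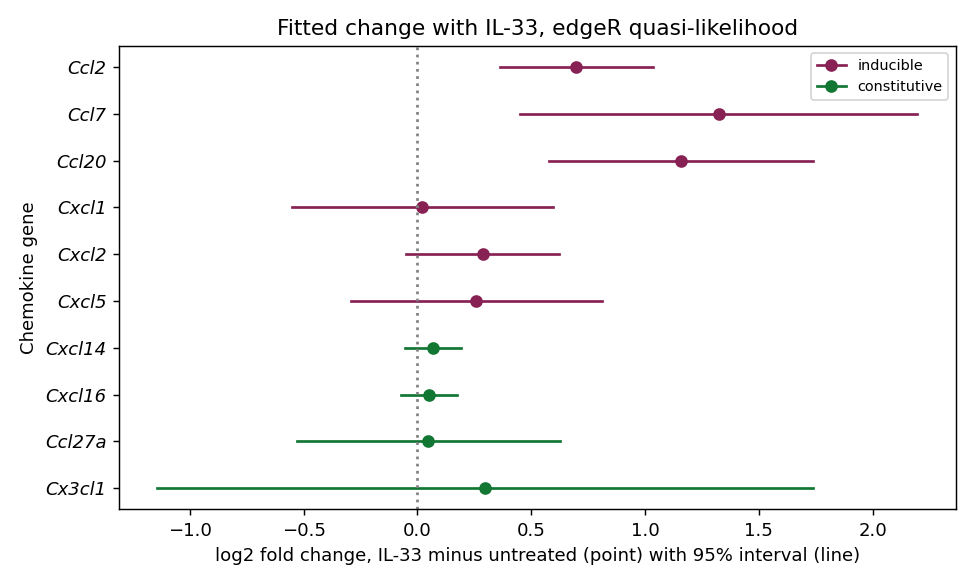
Fitted log2 fold change of each chemokine, IL-33 minus untreated, with its 95% interval, from edgeR's quasi-likelihood test on 3 libraries per group. The intervals of Ccl2, Ccl7 and Ccl20 lie above 0 before any adjustment for the number of genes tested, and those of the other 7 genes include 0.

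All 10 genes passed the filter on low counts. Among them 0 passed edgeR's adjusted threshold of 0.05, against 0.0697% of the 15778 genes tested. DESeq2 called 2 members, Ccl2 (adjusted p = 0.037) and Ccl20 (adjusted p = 0.0487), beside 0.439% of the genes it gave an adjusted p. On counts divided by 4, about 1 per fragment, DESeq2 called neither (adjusted p = 0.519 and 0.482). At an unadjusted edgeR p under 0.05, 3 members were higher with IL-33, beside 3.42% of all genes. The same 3, Ccl2, Ccl7 and Ccl20, were the members whose groups did not overlap, beside 7.39% of all genes that were higher without overlap. The log2 fold change was above 0 for 6 of 6 inducible and 4 of 4 constitutive genes, beside 50.5% of all genes, but for the inducible Cxcl1 and the constitutive Ccl27a and Cx3cl1 that sign turned under other settings. The median log2 fold change was 0.49 over the inducible and 0.06 over the constitutive genes, beside 0.00175 over all genes tested. The members were chosen with earlier results of these data known, so these comparisons with all genes are descriptions and not tests.

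The levels of the members were also summed within each class. The inducible genes together stood at 171, 124 and 143 CPM untreated and at 172, 124 and 185 CPM with IL-33, with means of 146 ± 23.8 and 160 ± 32.2 CPM (SD, n = 3 per group). These ranges overlapped, and Cxcl1 made up most of each sum. Without Cxcl1 the other 5 inducible genes summed to 36.2, 28.1 and 29.6 CPM against 46.6, 37.2 and 48.3 CPM. For that sum every IL-33 library was above every untreated library, though by little for replicate 2. It includes Ccl2, Ccl7 and Ccl20, whose groups were already apart, so it is not a separate result. The constitutive genes summed to 318, 309 and 312 CPM against 333, 316 and 329 CPM. Their lowest IL-33 library was within the untreated range.

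The members differed in how far libraries of a group lay apart. For each gene the coefficient of variation (CV, the SD as a percentage of the mean) of FPKM was set beside the CV that counting the fragments alone would give. As a ratio to the counting value, the spread of Cxcl1 was the largest among the members in each group, with a CV of 17.3% untreated and 22.5% with IL-33 against counting values of 2.86% and 3.02%. Cxcl14, with similar numbers of fragments, had 3.66% and 3.29% against 3.07% and 3.13%. Cxcl16 was near its counting value untreated, 1.79% against 2.1%, and above it with IL-33, 7.32% against 2.17%. A spread beyond counting was also seen for Ccl27a with IL-33 (41.3% against 10.7%), Cxcl5 untreated (36.5% against 13.8%), Cxcl2 with IL-33 (18.9% against 7.30%) and Ccl20 with IL-33 (31.0% against 15.0%). For Ccl7 the spread of 29.7% and 29.1% was near the counting values of 39.1% and 25.4%. Libraries of a group also differed beyond counting over the genes compared as a whole (chi-square per degree of freedom 5.48 to 7.64). A spread beyond counting is therefore not particular to the members.

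**Figure D3:**
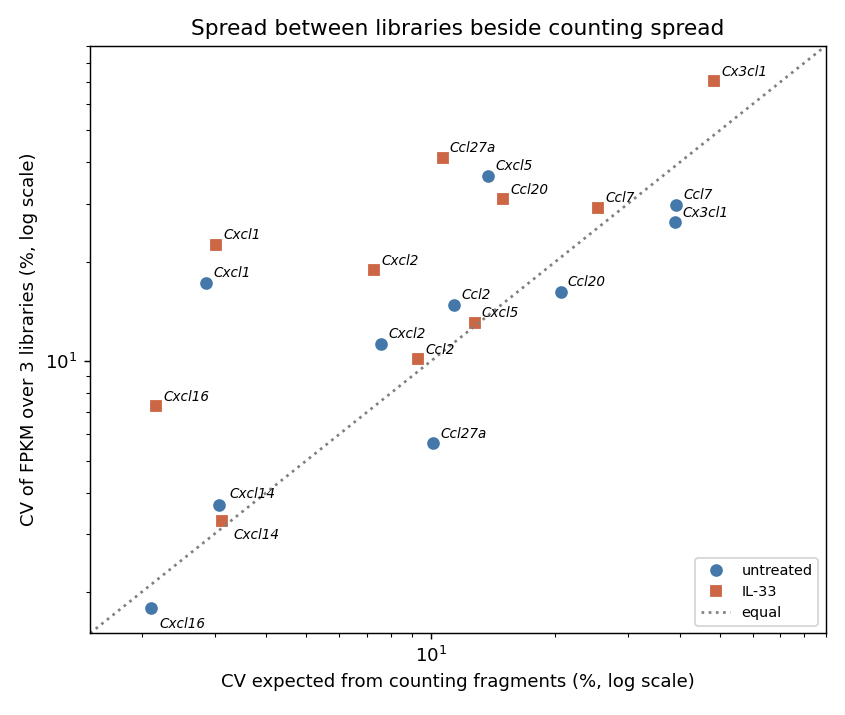
CV of deposited FPKM over the 3 libraries of a group against the CV expected from counting fragments alone, both in percent on log axes, with circles for untreated, squares for IL-33 and a dotted line where they are equal. Cxcl1 lies farthest above the line in both groups, at 17.3% and 22.5%, and Cxcl14 lies close to it.

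The members Cxcl1, Cxcl2 and Cxcl5 and their neighbour in the cluster, Cxcl3, were each lowest in replicate 2 of both groups, as were 11.9% of all genes tested. Cxcl3, a close relative of Cxcl2 that also acts on neutrophils, stood at 1.72, 1.57 and 2.01 FPKM untreated and at 2.01, 0.966 and 2.39 FPKM with IL-33. The replicate 2 libraries were also the shallowest of their groups, with 41456441 and 34188173 deposited counts, and FPKM is already scaled to depth. The part of depth in these levels was not tested. Cxcl2 and Cxcl3 share 36 of the 1035 stretches of 75 bases in the main Cxcl2 transcript (3.48%), so few reads could be split between them.

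The counts given to the transcripts of Cxcl14, Ccl27a and Ccl20 shifted between libraries. These counts are estimates, so a shift in assignment and a change in the transcripts themselves cannot be told apart. For Cxcl14, whose total was even, the transcript ENSMUST00000021970.10 took 98.3%, 40.3% and 95.9% of the gene's counts in the untreated libraries and 43.1%, 95.9% and 94.3% with IL-33. Nearly all the rest went to ENSMUST00000224801.1, which led in untreated replicate 2 (59.7%) and IL-33 replicate 1 (56.9%). That transcript has a shorter coding sequence, 186 against 300 bases with the stop codon, and a 3′ UTR of the same 1149 bases. The shift occurred in 1 library of each group. The gene's FPKM in these libraries, 45.8 and 48.1, was the lowest of each group by a small margin. Their summed transcript FPKM, 52.5 and 54.9, was instead the highest of each group, so the order depends on the length used.

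Ccl27a has many annotated transcripts, and ENSMUST00000074387.3 took 70.6%, 78.6% and 73.0% of its counts untreated and 41.3%, 82.0% and 1.17% with IL-33. In IL-33 replicate 3 the lead passed to ENSMUST00000108033.7 with 58.3%, against 6.80% to 16.0% in the other 5 libraries. The coding sequences of these transcripts are 363 and 360 bases long. Ccl20 was split between ENSMUST00000113437.8, with 39.5% to 69.7%, and ENSMUST00000186832.1, with 24.8% to 56.3%, whose coding sequences of 294 and 291 bases differ by 1 codon. For Ccl20 the leading transcript varied within both groups, and the shares rest on few fragments. The other genes kept 1 leading transcript in every library, with 93.7% to 99.2% of counts for Ccl2, 97.0% to 98.3% for Cxcl1 and 95.4% to 98.3% for Cxcl2. A retained-intron transcript took 14.2% to 30.5% of the Cxcl5 counts.

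**Figure D4:**
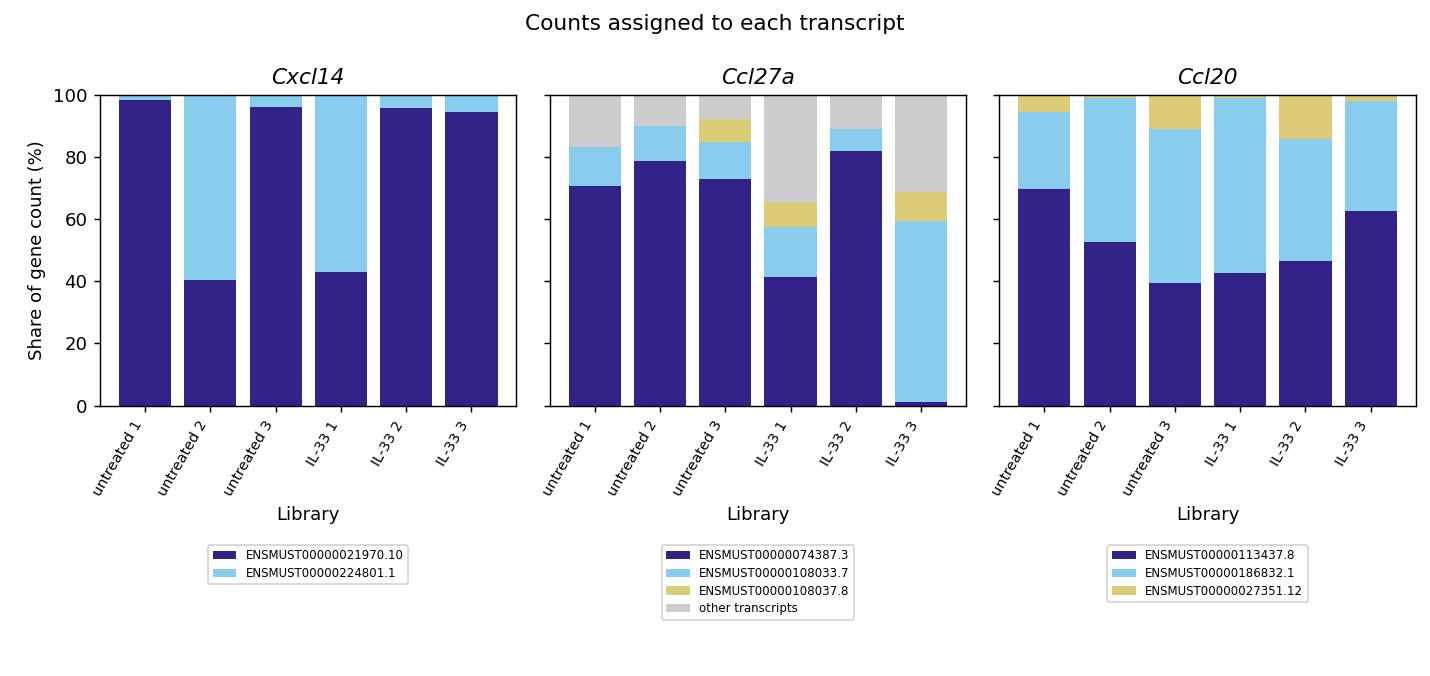
Share of a gene's deposited counts, in percent, given to each annotated transcript in the 6 libraries, for Cxcl14, Ccl27a and Ccl20. The leading Cxcl14 transcript falls to 40.3% and 43.1% in 1 library of each group, and that of Ccl27a to 1.17% in IL-33 replicate 3.

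Promoters were compared because IL-33 signals to NF-kB. The RefSeq promoter table (GRCm38.p6) held windows from 250 bases before to 50 bases after the start site for 6 of the 10 genes. The published NF-kB consensus was searched by name on both strands, and it occurs in 2779 of 32851 such windows (8.46%). It was found in the windows of Ccl20, Cxcl1 and Cxcl2. The windows show the 80 bases from 120 to 41 before the start site, on the plus strand, with the match in capitals, at chr1:83116646-83116725, chr5:90891125-90891204 and chr5:90903779-90903858.
Ccl20: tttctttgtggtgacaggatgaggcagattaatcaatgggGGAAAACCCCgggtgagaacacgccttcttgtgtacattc
Cxcl1: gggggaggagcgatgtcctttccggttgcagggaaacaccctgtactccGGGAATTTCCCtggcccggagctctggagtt
Cxcl2: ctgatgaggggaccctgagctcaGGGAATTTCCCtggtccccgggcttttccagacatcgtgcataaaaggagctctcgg

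Cxcl1 and Cxcl2 carried the same 11 bases in capitals, which match on both strands, at 71 to 61 and 97 to 87 bases before the start. The Ccl20 match lay on the minus strand at 80 to 71 bases before the start. The motif was present both in Ccl20, whose groups did not overlap, and in Cxcl1, whose ranges were almost the same. The part of the motif in these levels was not tested. Of the constitutive genes, Cxcl14 had no match in its window. Ccl27a had 3 windows, and 1 of them held an NF-kB match at 30 to 39 bases after the start and the AP-1 motif TGANTCA, which is in 7.81% of all windows. Cx3cl1 held only the letters TATAAA, which 13.6% of windows have. A match is a description of the letters and not a bound site. Ccl2, Ccl7, Cxcl5 and Cxcl16 had no entry.

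The 3′ UTRs were compared because messages of inducible chemokines are known to be short-lived, through AU-rich elements that contain the pentamer ATTTA. The pentamer was counted on the sense strand, overlaps included, in the most abundant coding transcript of each gene. Cxcl2 had 11 in 734 bases (15.0 per kb), Cxcl1 had 7 in 592 bases (11.8 per kb) and Ccl20 had 5 in 450 bases (11.1 per kb). These densities were at the 99.7th, 99.4th and 99.3rd percentiles of 12962 transcripts compared, whose median was 1.26 per kb. The densest 30 bases of each show the pentamers in capitals, with 5 in Cxcl2, 4 in Cxcl1 and 2 in Ccl20.
Cxcl2: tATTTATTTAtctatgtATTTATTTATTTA
Cxcl1: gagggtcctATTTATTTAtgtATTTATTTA
Ccl20: tgtaaagatATTTAatgttctgtttATTTA

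The longer motif TTATTTATT occurred 4 times in Cxcl2 and 2 times in Cxcl1, and 7.67% of the transcripts compared had it at all. It occurred 1 time in the constitutive Cx3cl1 and not in Ccl20, Ccl2, Ccl7 or Cxcl5. Cxcl5 (4.5 per kb), Ccl7 (4.60 per kb) and Ccl2 (3.64 per kb) were lower than these 3 but above the median. Of the constitutive genes, Cxcl16 was near the median with 1.41 per kb, and Cx3cl1 had 1 pentamer in 1871 bases. Cxcl14 had none in 1149 bases, and the annotated 3′ UTR of Ccl27a had only 20 bases. All 6 inducible genes were thus above all 4 constitutive genes in density, as a property of the annotated sequence and not of these libraries. The genes with the densest pentamers included both Ccl20 and Cxcl1, with log2 fold changes of 1.16 and 0.02, and the difference between those was not tested.

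**Figure D5:**
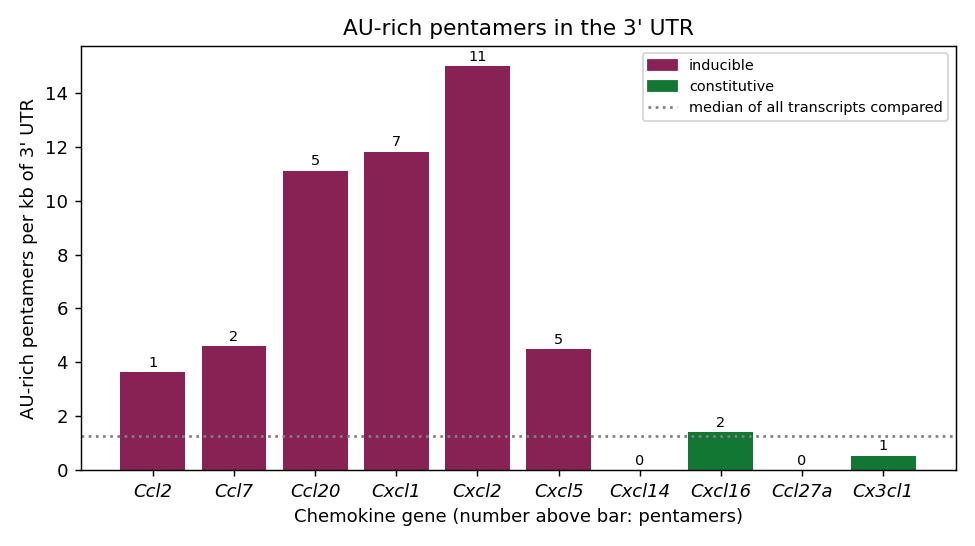
Number of ATTTA pentamers per kb of annotated 3′ UTR in the most abundant coding transcript of each chemokine, with the count above each bar and a dotted line at the median of all transcripts compared (1.26 per kb). The 6 inducible genes stand between 3.64 and 15.0 per kb and the 4 constitutive genes between 0 and 1.41.

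Among proteins that act on such messages, 11 of 11 were tested. Of these 0 passed edgeR's or DESeq2's adjusted threshold, and 1 was lower at an unadjusted edgeR p under 0.05, beside 3.31% of all genes. That gene, Zfp36l2, whose product binds AU-rich elements and speeds decay, stood at 129, 123 and 135 FPKM untreated and at 124, 120 and 115 FPKM with IL-33. Its groups overlapped narrowly in FPKM and almost touched in CPM, where untreated replicate 2 had 485.05 and IL-33 replicate 1 had 485.02. Its log2 fold change was −0.11 (interval −0.21 to −0.01, edgeR adjusted p = 0.74). Its relatives Zfp36 and Zfp36l1 stood at 27.1 ± 0.875 and 46.5 ± 1.76 FPKM untreated and at 25.6 ± 1.24 and 45.9 ± 8.25 FPKM with IL-33. Zc3h12a, an endonuclease that cuts inflammatory messages, had 5.84 ± 0.250 and 6.73 ± 1.34 FPKM (log2 fold change 0.21, interval −0.11 to 0.52).

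The rest of the chemokine family was mostly not detected. Of 31 other mouse chemokine genes 30 were in the table, 18 of them at 0 in every library, and 7 could be tested. Of those 7, 0 passed edgeR's or DESeq2's adjusted threshold, 0 had an unadjusted p under 0.05, and their median log2 fold change was 0.02. The other genes of the monocyte attractant cluster on chromosome 11, Ccl1, Ccl8, Ccl11 and Ccl12, were at 0 throughout, unlike Ccl2 and Ccl7. In the chromosome 5 cluster Cxcl15 was at 0, and Pf4 and Ppbp had 4 and 9 deposited counts in IL-33 replicate 3 alone, under the floor. Cxcl10, an interferon-induced attractant of T cells, stood at 2.78 ± 0.0468 FPKM untreated and 2.59 ± 0.390 with IL-33 (log2 fold change −0.10, interval −0.44 to 0.24). Ccl5, which attracts T cells and monocytes, stood at 0.251, 0.0903 and 0.249 FPKM against 0.342, 0.770 and 0.339 FPKM. Its groups did not overlap, beside 7.39% of all genes that were higher without overlap. Only 5 to 29 deposited counts lay behind each value, and untreated replicate 2, with 5, was under the floor. The Ccl5 log2 fold change of 1.19 had an interval of −0.25 to 2.63 (edgeR adjusted p = 0.766).

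Most chemokine receptor genes were at 0 or too low to test. Of 23 such genes, 13 were at 0 in every library and 2 could be tested, both of them scavengers, and of these 0 passed edgeR's or DESeq2's adjusted threshold and 0 had an unadjusted edgeR p under 0.05. Ackr3, which takes up Cxcl12, stood at 3.95 ± 0.275 and 3.98 ± 0.210 FPKM (log2 fold change 0.01, interval −0.22 to 0.25). Ackr4, which takes up CC chemokines, stood at 0.816 ± 0.00937 and 0.785 ± 0.0379 FPKM (log2 fold change −0.06, interval −0.40 to 0.29). Ccr10, the receptor of Ccl27a, had at most 0.171 FPKM in any library and was not tested.

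Proteases that release or trim chemokines were expressed, 10 of 11 tested. Of these, 0 passed edgeR's or DESeq2's adjusted threshold, and 0 had an unadjusted edgeR p under 0.05. Adam10, which releases Cxcl16 and Cx3cl1 from the membrane, stood at 16.6 ± 0.274 FPKM untreated and 17.1 ± 0.553 with IL-33 (log2 fold change 0.05, interval −0.07 to 0.17). Adam17, the other main sheddase, stood at 9.05, 8.23 and 8.95 FPKM against 5.76, 8.62 and 6.31 FPKM. IL-33 replicates 1 and 3 were below all untreated libraries and replicate 2 was among them, and the log2 fold change of −0.34 did not pass (SE 0.146, edgeR adjusted p = 0.744). Mmp13, a collagenase that trims chemokines, stood at 3.60 ± 0.507 and 4.19 ± 0.423 FPKM (log2 fold change 0.22, interval −0.09 to 0.53).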

How the data were processed

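RNA from 3 untreated and 3 IL-33 libraries was analysed. Per the submitters' processing notes, the genome build was mm10 and the tools were StringTie 1.3.4d, HISAT2 2.1.0, FastQC 0.11.7 and DESeq2 1.18.1. Their roles, the annotation and any strand setting were not given in the sources used here. Tables that the authors deposited hold estimated counts, whole numbers taken as about 4 per fragment, and FPKM for genes and transcripts. Identifiers were matched to GENCODE M21 (GRCm38), which holds 97.16% of the transcript versions.

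The main test was edgeR 4.0.16 (R 4.3.3): quasi-likelihood, TMM, robust, filterByExpr minimum count 10, Benjamini-Hochberg over 15778 genes, threshold 0.05. The SE comes from the F statistic. Alternatives used DESeq2 1.42.0 on counts and limma 3.58.1 on voom-weighted counts, log2(FPKM + 0.1) or log2(FPKM + 1), and these tests were tested on simulated data. All pairs of libraries of a group differed beyond sampling noise (chi-square per degree of freedom 5.48 to 7.64). All 10 members were named. From other lists, calls, the 4 highest and up to 2 with the smallest p were eligible. The members and lists were chosen with earlier results of these data known. Intervals of fold changes include the spread between libraries, and depth limits Ccl7 and Cx3cl1.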

Additional observations from a re-analysis of the deposited data

How the results depend on the processing

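Over 19 alternatives the median log2 fold change ran from 0.43 to 0.70 for the inducible and from −0.0039 to 0.11 for the constitutive genes. Ccl2 (0.59 to 0.80), Ccl7 (0.70 to 1.55) and Ccl20 (0.76 to 1.35) kept their direction in all of them. Of the members 0 were called in any alternative but DESeq2, which called 2, and on counts divided by 4 DESeq2 gave adjusted p of 0.519 for Ccl2 and 0.482 for Ccl20. Against 11 genes called in all, there were 17 with no filter on low counts, 71 with DESeq2, 31 with DESeq2 on counts divided by 4, and 4 with limma at each of 3 FPKM settings. Leaving out 1 library gave 11 to 90 genes, and those beyond 1.5 times the count were 90 (IL-33 replicate 3 left out), 20 (IL-33 replicate 1) and 18 (untreated replicate 3). The cause was not tested.

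With 1 library left out, Cxcl2 ran from 0.18 to 0.43 and Cxcl5 from 0.096 to 0.59. The sign of 3 members, Ccl27a, Cx3cl1 and Cxcl1, reversed in some settings. Ccl27a was −0.062 with limma-voom, −0.036 with limma on log2(FPKM + 0.1), with or without a filter, and −0.017 on log2(FPKM + 1). Leaving out 1 library gave −0.32 (without IL-33 replicate 2) to 0.25. Cx3cl1 was −0.082 with limma-voom and ran from −0.23 (without IL-33 replicate 1) to 0.77. It was not tested with counts divided by 4 in edgeR or with the stricter filter. Cxcl1 ran from −0.11 (without IL-33 replicate 3) to 0.19, and was also below 0 without untreated replicate 2 or IL-33 replicate 1.

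The labels number the libraries 1 to 3 in both groups, but same-numbered libraries hardly deviated together (correlations 0.0539, 0.0455 and 0.00118 over 13133 genes). Correlations of differently numbered libraries ran from −0.0801 to 0.033, below those of replicates 1 and 2. With a replicate block edgeR called 8 genes and 0 members, and Ccl27a was at −0.017.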
